A study of Zea mays with 6 samples.

Results

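In very young maize ears, 270 genes had their lowest transcript level in the knockout of RHW1, an intermediate level in wild type and their highest level in the line labelled as overexpressing RHW1. They were selected on the measured values of all 6 libraries. A gene had to average at least 5 CPM, the unit in which its reads are scaled to a library of 1000000 reads. Both knockout values had to lie below both wild-type values, and both wild-type values below both overexpression values. Each group mean also had to exceed the one below it at least 1.1-fold. Of the 45578 genes in the deposited table, 17376 reached the level of 5 CPM, and 270 of these (1.55%) met every condition. Because the genotypes themselves chose the genes, the order and the size of the differences below are descriptions and carry no test. The RHW1 transcript was not analysed here, so the order is that of the genotype labels and not of a measured RHW1 dose.

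The title of the series names a pathway from RHW1 to ZCN4 behind natural differences in husk leaf width. Husk leaves are modified leaves that grow from the short branch bearing the ear and wrap it. ZCN4 belongs to the maize relatives of TERMINAL FLOWER1 and FLOWERING LOCUS T, a family of small proteins that work with bZIP transcription factors to hold or release meristem identity. In a series from loss to gain of a regulator, transcripts that follow its activity are expected at graded levels, but transcripts that differ between lines for any other reason can fall in the same order.

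The ears measured up to 0.5 cm. The knockout carries the CRISPR-edited allele rhw1-1, the overexpression line is the single line OE#1, and both were set against wild-type plants. Each genotype had 2 libraries. The promoter of the transgene, the inbred background, and whether a library came from 1 ear or from pooled ears are not stated in the labels. The spread between libraries of a genotype may thus be technical. With 1 edited allele and 1 transgenic line, an effect of the line cannot be told apart from an effect of RHW1. These are bulk ears, in which fewer cells of a type and less RNA per cell cannot be told apart.

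Library totals ranged from 21094445 to 23999698 reads. All 270 genes carried Zm00001d identifiers, and the reference table of maize genes matched 0 of the 43789 identifiers of that kind. The genes are therefore given by identifier, without function, position or sequence, and neither the tissue label nor the genotype labels could be checked against marker genes. The 1 microRNA gene above 5 CPM, zma-MIR528a, was not a member. Its wild-type values of 3.42 and 3.94 CPM lay below both knockout values of 6.37 and 7.44 CPM, while overexpression stood highest at 9.91 and 11.4 CPM.

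As a group, the 270 genes took up a small share of the transcriptome that widened from genotype to genotype. They held 0.925% and 0.942% of all reads in the knockout libraries, 1.112% and 1.099% in wild type, and 1.41% and 1.40% in overexpression. The median gene stood at 15.8 and 15.7 CPM in the knockout, at 18.5 and 18.4 CPM in wild type and at 22.8 and 22.7 CPM in overexpression. Both libraries of a genotype gave nearly the same median. Relative to each gene's wild-type mean, the median log2 difference was -0.25 and -0.23 in the knockout libraries and 0.28 and 0.25 in overexpression. Over all 17376 genes of at least 5 CPM it was 0.01 in both knockout libraries and -0.01 in both overexpression libraries.

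**Figure D1:**
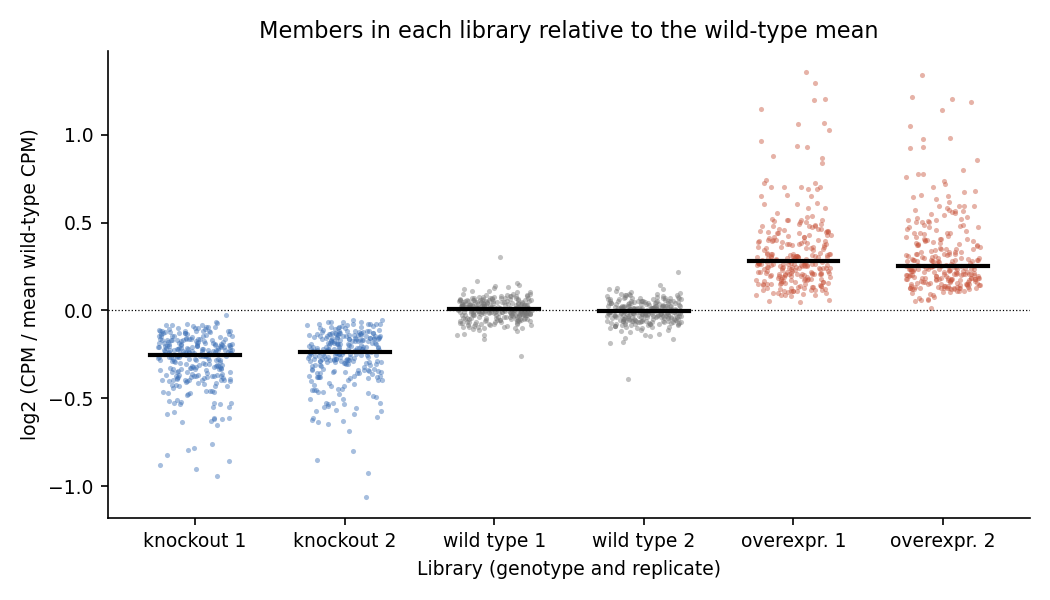
Each point is 1 of the 270 genes, shown as the log2 ratio of its CPM in a library to its mean wild-type CPM; black bars are medians over genes. The knockout medians lie at -0.25 and -0.23 and the overexpression medians at 0.28 and 0.25, an order fixed by the way the genes were chosen.

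Most of the differences were small. From knockout to wild type the median ratio of group means was 1.17-fold, and 90% of the genes were under 1.38-fold. From wild type to overexpression it was 1.20-fold, with 90% under 1.499-fold. Over all genes of at least 5 CPM the medians were 0.990 and 0.992. Wild type exceeded the knockout by at least 25% in 76 genes and 1.5-fold in 11. Overexpression exceeded wild type by at least 25% in 95 genes and 1.5-fold in 27. Both differences reached 25% in 35 genes and 1.5-fold in 2. Across the whole range, overexpression over knockout, the median was 1.45-fold, the highest value was 2.88-fold and 25 genes reached 2-fold.

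The choice had sharp edges. At the limit of 1.1 for the lower ratio, the last gene inside stood at 1.1004 and the first outside at 1.0995. For the upper ratio these values were 1.1002 and 1.0994, and for the mean level 5.14 and 4.98 CPM. In all, 199 genes met every condition except the size of the lower ratio, 92 every condition except the size of the upper ratio, and 166 every condition except the level. The gap between the closest libraries of neighbouring genotypes was often narrow. It was under 5% between knockout and wild type in 60 members and between wild type and overexpression in 47. In 86 members both gaps were at least 1.1-fold.

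**Figure D2:**
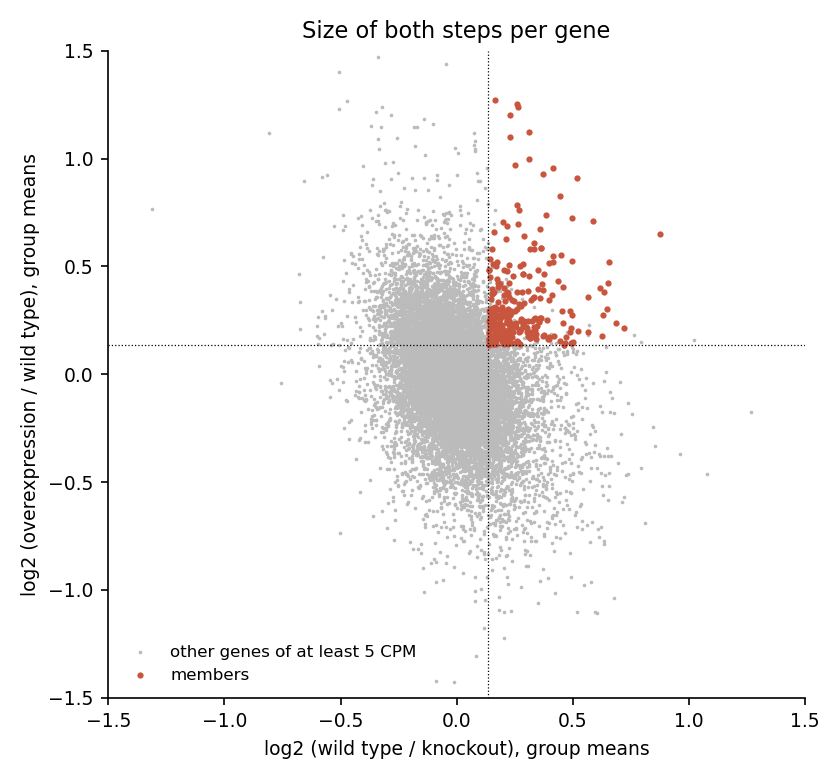
Each point is a gene of at least 5 CPM, with the log2 ratio of wild type to knockout on the x axis and of overexpression to wild type on the y axis (group means, 2 libraries each); dotted lines mark the 1.1-fold limits and 17 genes lie outside the axes. The 270 members, in red, fill the upper right corner and crowd near the limits. Grey genes in that corner had overlapping libraries. The wild-type libraries enter both axes with opposite signs.

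By the smaller of its log2 ratios between neighbouring genotypes, Zm00001d019809 ranked first. Its level was 6.50 and 6.72 CPM in the knockout, 12.9 and 11.4 CPM in wild type and 19.7 and 18.3 CPM in overexpression. The 3 genotypes were well apart, with means of 6.61 ± 0.158, 12.1 ± 1.08 and 19.0 ± 1.01 CPM (SD, n = 2), and log2 ratios of 0.88 and 0.65 between neighbouring genotypes. Zm00001d003804 was the other gene with both ratios above 1.5-fold. It stood at 3.94 and 4.06 CPM in the knockout, 5.93 and 6.10 CPM in wild type and 10.8 and 8.92 CPM in overexpression, with log2 ratios of 0.59 and 0.71. Its overexpression libraries differed more from each other than those of the other genotypes did.

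A much more abundant gene, Zm00001d048709, was graded almost evenly. It had 173 and 179 CPM in the knockout, 246 and 251 CPM in wild type and 359 and 357 CPM in overexpression, with log2 ratios of 0.50 and 0.52. Replicates of this gene lay close together in every genotype, far closer than the genotypes lay to each other. Zm00001d017147 stood at 19.5 and 20.3 CPM, 27.4 and 26.7 CPM, and 49.7 and 46.3 CPM in the same order of genotypes, so that its upper log2 ratio of 0.83 exceeded its lower one of 0.45. Zm00001d048593 had 6.87 and 7.67 CPM in the knockout, 10.2 and 9.73 CPM in wild type and 14.6 CPM in both overexpression libraries, with log2 ratios of 0.45 and 0.55.

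Low or uneven values limit the remaining genes with large smaller ratios. Zm00001d046935 had 3.19 and 3.16 CPM in the knockout, 4.76 and 4.33 CPM in wild type and 9.48 and 7.58 CPM in overexpression. Zm00001d017364 had 3.35 and 4.33 CPM in the knockout, 5.71 and 6.41 CPM in wild type and 9.53 and 7.83 CPM in overexpression. Both are among the weakly expressed members, and the replicates of the first differed most in overexpression. Zm00001d035610 barely met the order: its wild-type libraries were 26.3 and 16.23 CPM, the lower of them next to the higher knockout value (16.18 and 13.9 CPM), with overexpression at 34.2 and 36.0 CPM. Its lower log2 ratio of 0.50 was 0.11 or 0.80 when wild type replicate 1 or 2, respectively, was left out, and its upper one of 0.72 was then 1.11 or 0.42.

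**Figure D3:**
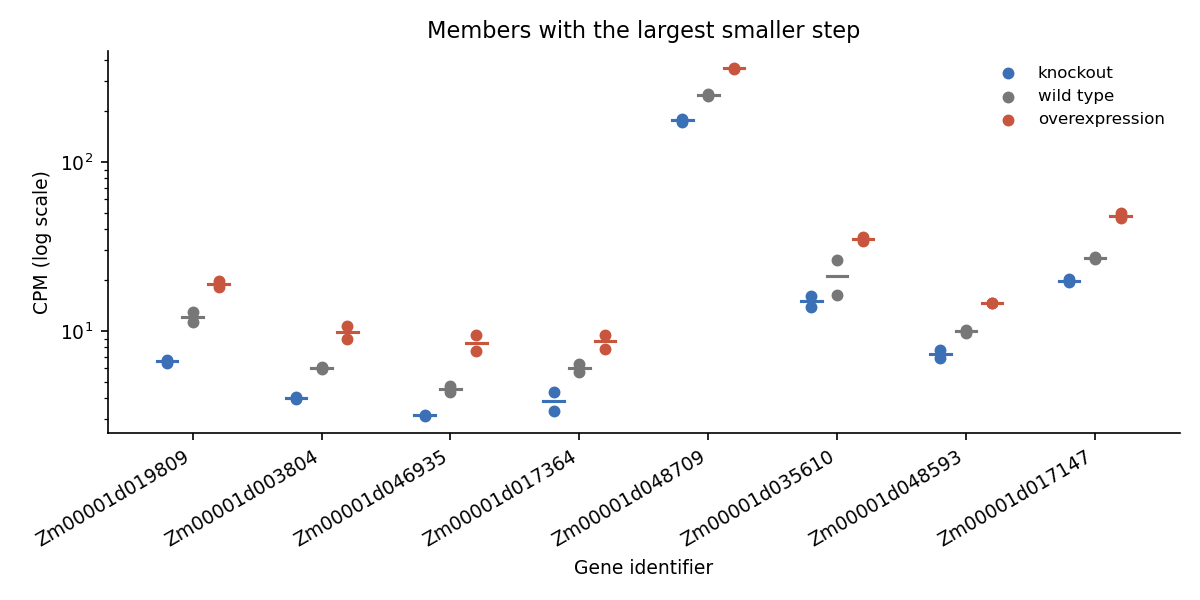
CPM on a log axis for the 8 members with the largest smaller ratio; points are the 2 libraries of a genotype and short lines their mean. Zm00001d048709 stands near 173 to 359 CPM with tight replicates, while the wild-type libraries of Zm00001d035610 lie far apart, at 26.3 and 16.2 CPM.

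The 6 most abundant members ranged from 1.36-fold to 2.03-fold between knockout and overexpression, around the median of 1.45-fold over all members. The highest in level was Zm00001d033605, with 576 and 585 CPM in the knockout, 642 and 648 CPM in wild type and 848 and 823 CPM in overexpression. Zm00001d002000 followed with 358 and 380 CPM, 415 CPM in both wild-type libraries, and 509 and 493 CPM in overexpression. Zm00001d028129 was graded about evenly, at 271 and 284 CPM, 327 and 322 CPM, and 383 and 387 CPM in the same order of genotypes. In each of these 3 genes the replicates differed by less than the nearest libraries of neighbouring genotypes.

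Among the abundant members, Zm00001d023994 and Zm00001d048710 had opposite shapes. Zm00001d023994 stood at 237 CPM in both knockout libraries, at 272 and 280 CPM in wild type and at 435 and 455 CPM in overexpression, with log2 ratios of 0.22 and 0.69. Zm00001d048710 had 276 and 269 CPM in the knockout, 350 and 339 CPM in wild type and 395 and 382 CPM in overexpression, with log2 ratios of 0.34 and 0.17. Together with Zm00001d048709, the 6 most abundant members held 20.6% of the summed CPM of the 270 genes. Another 20 brought the number of members at or above 100 CPM to 26, while 141 members stood under 20 CPM.

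The group was not of 1 shape. On the log2 scale, wild type lay at a median of 0.471 of the way from knockout to overexpression, with the 25th and 75th percentiles at 0.378 and 0.571. The upper ratio was the larger in 155 genes and the lower ratio in 115. In 206 genes the log2 ratios were within 2 times of each other, in 41 the upper was over 2 times the lower, and in 23 the lower was over 2 times the upper. The 41 genes had median ratios of 1.14-fold and 1.44-fold at a median level of 28.5 CPM. The 23 genes had median ratios of 1.40-fold and 1.13-fold at a median level of 12.1 CPM.

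The genes with the largest upper ratios, named here, had lower ratios of 1.12-fold to 1.20-fold, around the median of 1.17-fold over all members. Zm00001d034551 had 19.0 and 16.6 CPM in the knockout, 20.1 and 19.8 CPM in wild type and 45.8 and 50.5 CPM in overexpression. Its upper log2 ratio was 1.27, and its lower one of 0.17 was 0.27 or 0.07 when knockout replicate 1 or 2, respectively, was left out. Zm00001d009589 had 95.2 and 87.9 CPM, 103 and 112 CPM, and 246 and 247 CPM, with an upper log2 ratio of 1.20. These genes met the order, yet most of their range on the log2 scale lay between wild type and overexpression. The same held for Zm00001d008211, at 4.78 and 5.32 CPM, 6.14 and 5.97 CPM, and 15.5 and 13.3 CPM, and for Zm00001d051532, at 6.62 and 7.04 CPM, 8.35 and 8.05 CPM, and 20.1 and 18.6 CPM.

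The largest lower ratios, after that of Zm00001d019809, were those of Zm00001d020781 and Zm00001d049650. Zm00001d020781 had 8.13 and 9.29 CPM in the knockout, 13.2 and 15.5 CPM in wild type and 17.4 and 15.9 CPM in overexpression. Its lower log2 ratio was 0.72, and its upper one of 0.21 was 0.11 or 0.33 when wild type replicate 1 or 2, respectively, was left out. Zm00001d049650 had 6.29 and 3.97 CPM in the knockout, 8.26 and 8.27 CPM in wild type and 9.53 and 9.96 CPM in overexpression. Its lower log2 ratio of 0.69 rested on the knockout library with fewer reads, and was 1.06 or 0.39 when knockout replicate 1 or 2, respectively, was left out. Of all members, this gene had the largest difference between knockout replicates, 1.58-fold.

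Within a genotype, the members' median difference between replicates, with its sign kept, was small. The direction of the difference between 2 replicates of 1 genotype was not fixed by the choice, although its size was limited by it. In the knockout, 163 of 270 members (60.4%) were higher in replicate 2 than in replicate 1, beside 49.3% of all genes of at least 5 CPM, with a median log2 ratio of 0.03. In wild type the share was 47.0% beside 50.5%, and in overexpression 44.4% beside 49.9%, with median log2 ratios of -0.01 and -0.02. Each of these medians was under a log2 ratio of 0.05, against 0.23 and 0.26 between neighbouring genotypes. The rule makes both differences between genotypes positive in every member, while rises and falls between replicates cancel in a median. This contrast in size was thus largely fixed in advance, and nothing is read from it. The median difference between replicates, in either direction, was 1.07-fold in the knockout, 1.053-fold in wild type and 1.06-fold in overexpression, beside 1.053-fold, 1.051-fold and 1.050-fold for all genes. The 2 sets were not matched for level, with a median of 18.8 CPM in members and 31.5 CPM in all genes.

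Fitted over all 22947 tested genes, edgeR's quasi-likelihood test called 108 of the 270 members lower in the knockout than in wild type (40.0%), beside 4.48% of all tested genes. It called 158 members higher in overexpression than in wild type (58.5%, beside 15.3%) and 267 higher in overexpression than in the knockout (98.9%, beside 14.1%). All 270 passed the filter on low counts. As the members were chosen on these same contrasts, nothing is read from the shares. Both comparisons with wild type share the wild-type libraries. They called 87 members together, beside 0.501% of all tested genes with both calls, the knockout comparison alone 21, the overexpression comparison alone 71, and neither 91. The matching shares of all tested genes are not given for calls in 1 comparison alone or in neither, and nothing is read from those counts. Of those 91, 88 were called between overexpression and knockout, a comparison that called 14.1% of all tested genes. The knockout count was 61 with wild type replicate 1 left out, 60 with knockout replicate 1 left out and 65 in DESeq2, which gave 81 members no adjusted p in that comparison.

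The share of members called rose with level, as did the share of all genes called. Of the 63 members between 5 and 10 CPM, 12.7% were called in the knockout comparison and 33.3% in the overexpression comparison, beside 2.81% and 7.84% of all genes at that level. Of the 55 members from 50 CPM up, 96.4% and 100% were called, beside 9.40% and 30.7% of all genes at that level. Both calls were made in 2 of 63 members between 5 and 10 CPM, in 5 of 78 between 10 and 20 CPM, in 27 of 74 between 20 and 50 CPM and in 53 of 55 above. Over all genes of the same classes, from low to high level, both calls were made in 0.0839%, 0.173%, 0.474% and 1.34%. Again nothing is read from these shares, since the same contrasts chose the members. The median lower ratio was 1.24-fold, 1.17-fold, 1.16-fold and 1.16-fold in these 4 classes, from low to high level. The median upper ratio was 1.23-fold, 1.18-fold, 1.19-fold and 1.21-fold. The share of genes that met the rule was highest at low level, 2.64% of those between 5 and 10 CPM and 0.944% of those from 50 CPM up. The median member stood at 18.8 CPM, and the median of all genes of at least 5 CPM at 31.5 CPM. The member with the fewest reads had 701 over the 6 libraries.

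The order from knockout over wild type to overexpression was not the most frequent one. Without a minimum ratio, 763 of 17376 genes (4.39%) had their libraries in this order. The same rule applied to each of the 6 possible orders of the genotypes gave 1428 genes, of which the 270 members were 18.9%. The reverse order held 341 genes. The order with wild type lowest and overexpression highest held 319, and that with overexpression lowest and wild type highest 398. Orders with overexpression in the middle held 68 and 32 genes. Where both differences had to reach 25%, the members' order was the most frequent, with 35 of 99 genes (35.4%), before 27, 25, 8, 3 and 1 in the others. At 1.5-fold it was not: 2 of 9 genes (22.2%) had this order, and 4 had wild type lowest and overexpression highest. These counts are not independent, since every order uses the same 6 libraries, and their differences were not tested.

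**Figure D4:**
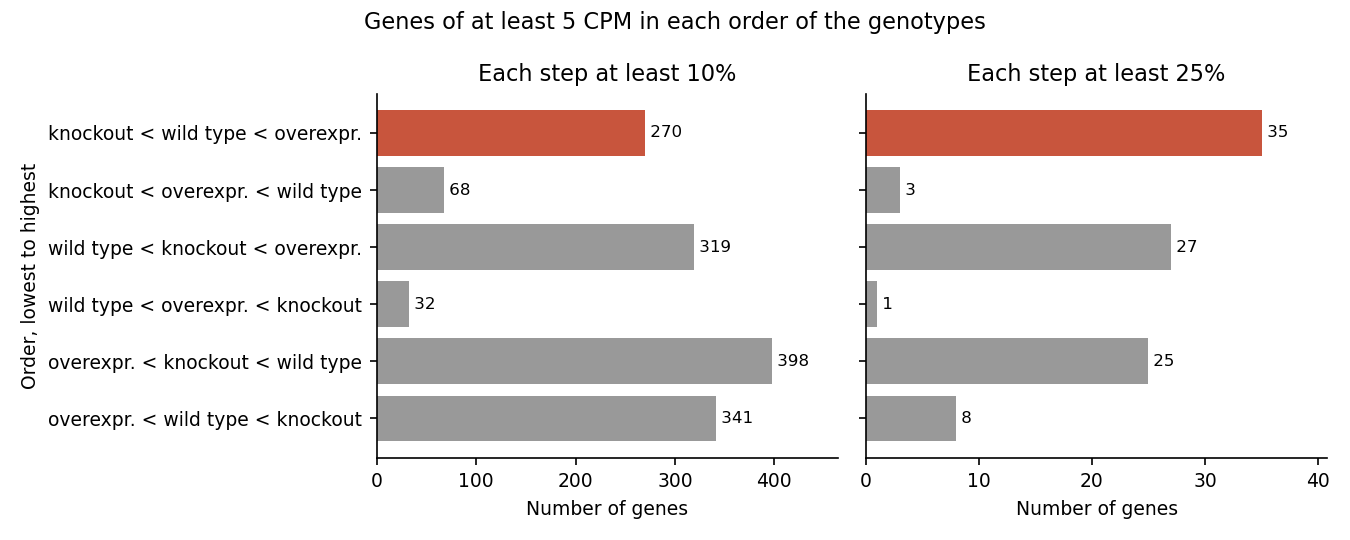
Number of genes of at least 5 CPM whose libraries fall without overlap in each order of the 3 genotypes, with neighbouring group means at least 10% (left) or 25% (right) apart. The members' order, in red, has 270 genes beside 398, 341 and 319 in others on the left, and 35 beside at most 27 on the right.

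Leaving 1 library out of the choice shows how often the order held in a library that had no part in it. When genes were chosen by the same rule on the other 5 libraries, overexpression replicate 1 lay above both wild-type libraries in 238 of 286 genes (83.2%) and overexpression replicate 2 in 257 of 310 (82.9%). Knockout replicate 1 lay below both wild-type libraries in 248 of 336 genes (73.8%) and knockout replicate 2 in 267 of 371 (72.0%). Wild type replicate 1 lay between the knockout and the overexpression libraries in 236 of 312 genes (75.6%) and wild type replicate 2 in 236 of 316 (74.7%). The order was thus missed, once the library was added, in 88 and 104 of the genes chosen without a knockout library, in 76 and 80 of those chosen without a wild-type library and in 48 and 53 of those chosen without an overexpression library. The libraries beside which the left-out one was placed did take part in the choice, which in part fixes these shares in advance. They have no value for no change beside them and carry no test.

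Each knockout or overexpression library, when left out of the choice, stood closer to wild type than the other replicate, which was used. The size of each gap includes any difference between the replicates themselves. Among genes chosen without it, overexpression replicate 2 stood a median of 1.151-fold above the wild-type mean, where the overexpression library used in the choice stood 1.20-fold above it. For overexpression replicate 1 the values were 1.18-fold and 1.19-fold. Knockout replicate 1 stood 1.14-fold below wild type, beside 1.17-fold in the library used, and knockout replicate 2 stood 1.104-fold below, beside 1.18-fold. The wild-type libraries in these ratios took part in the choice. Wild-type libraries that were left out did not stand closer to the other genotypes in general. Wild type replicate 1 stood 1.19-fold above knockout and 1.23-fold below overexpression, beside 1.18-fold and 1.199-fold in the library used. Wild type replicate 2 stood 1.17-fold above and 1.24-fold below, beside 1.18-fold and 1.19-fold. Of the 270 members, 111 met the rule in every one of the 6 choices that left out 1 library. They had a median level of 24.3 CPM and median ratios of 1.23-fold and 1.28-fold, beside 16.5 CPM, 1.152-fold and 1.17-fold in the other 159. Dropping a library cannot break the order of a member, so the 159 missed only a ratio or the level. The larger ratios and level of the 111 thus follow in part from the rule.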

How the data were processed

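The authors deposited raw counts of reads per gene, 1 column per library. Per the submitters' processing notes, the tools were HTSeq, StringTie, HISAT2 2.1.0, Trimmomatic 0.35 and edgeR 3.32.1, with no roles stated. Per the labels' protocols, DNase-treated total RNA went into NEBNext Ultra II libraries. Genome build, annotation, counting options and use of strand were not given in the sources used here, so counts of overlapping genes and near-identical copies are uncertain. The number of columns left unused was 0.

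CPM was computed per column total, without a pseudocount, with Python 3.11.15 and pandas 2.3.3. Genes were tested across the whole table with edgeR 4.0.16 (R 4.3.3): filterByExpr with a minimum count of 10 (22947 genes), TMM factors of 0.9906 to 1.008, 1 quasi-likelihood fit of 6 libraries with 3 group means, Benjamini-Hochberg adjustment over all tested genes, called below 0.05. The fit was checked on simulated data. Alternatives used DESeq2 1.42.0, limma-voom (limma 3.58.1), other scalings, levels and ratios, a replicate block and each library left out; a group then has 1 library, assumed to vary like the others.

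The members and lists were chosen with earlier results of these data known. The members described are the 8 with the largest smaller ratio, the 6 most abundant and the 4 with the largest ratio at each step; those with nearly equal ratios of at least 1.5-fold were already among them. Of 12 gene lists fixed by symbol, 0 had a matched identifier, so none is described. The values of left-out libraries were chosen for description after the data were seen.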

Additional observations from a re-analysis of the deposited data

How the results depend on the processing

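The number of members was 318 with TMM-scaled CPM and 318 with DESeq2 size factors, which kept all 270. It was 355 at a mean of at least 1 CPM, 207 at 10 CPM, 436 with no level limit, 763 with no minimum ratio, 35 at a minimum step of 25% and 2 at 1.5-fold, as each of these limits only adds or removes genes. Leaving out 1 library gave 286 to 371. With the members held fixed, the median log2 ratio of wild type to knockout ranged from 0.230 to 0.254 and that of overexpression to wild type from 0.254 to 0.282 with 1 library left out, and neither moved by more than the replicate spread with other scalings or a pseudocount of 1. The median place of wild type ranged from 0.446 to 0.490 over all alternatives run. Members called in the knockout comparison were 60 to 114 with 1 library left out and 65 in DESeq2, against 108. In DESeq2, 81 members had no adjusted p in that comparison. The cause of these differences in count was not tested. The other counts of calls, 158 and 267, stayed within 1.5 times. Deviations from group means hardly correlated between libraries of the same replicate number (-0.00862, -0.0139 and 0.00772), and a replicate block gave 104, 156 and 265 calls. These values cannot show whether libraries were harvested or prepared in pairs. Of 304 ratios of the 19 named genes under alternatives, 0 changed sign. With a library left out this was fixed in advance, since the rule puts all libraries of a member in order. TMM factors of 0.9906 to 1.008 were too alike to reverse a ratio of at least 1.1-fold, and DESeq2 size factors gave nearly the same ratios as TMM. With 2 libraries a genotype, differences of about 1.1-fold at low level lie near the spread between replicates.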

Other observations

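Among the 6 most abundant members, Zm00001d048709 and Zm00001d048710 carry consecutive identifiers. This was noticed after their values were seen. The sources used here do not say whether they are neighbours or near-identical copies, so reads shared between them could not be checked. Their shapes differed: the log2 ratios were 0.50 and 0.52 for Zm00001d048709, and 0.34 and 0.17 for Zm00001d048710.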
